A study of Mus musculus with 6 samples.

Results

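The Ikaros family consists of the genes Ikzf1 (Ikaros), Ikzf2 (Helios), Ikzf3 (Aiolos), Ikzf4 (Eos) and Ikzf5 (Pegasus). The genes were taken by name, and all 5 were among the 23183 genes listed for each library. The cells were primary ILC2 (group 2 innate lymphoid cells) of wild-type mouse lung, lymphocytes that lack antigen receptors and secrete type 2 cytokines. In both groups they received interleukins 2, 7 and 33, at 10 ng/ml, for 24 h. The control group (3 libraries) also received an IgG2b isotype antibody, and the treated group (3 libraries) received DTA-1, an agonist antibody against GITR, a co-stimulatory receptor of the TNF receptor family. Whether the libraries of a group came from separate animals or cultures is not in the labels, so p-values measure the spread between these libraries, which may be technical.

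Ikaros factors are zinc finger proteins of lymphocytes. Zinc fingers near the amino terminus bind DNA, and a pair at the carboxy terminus joins members into dimers, so that members can act together or block one another. They recruit corepressors such as the NuRD complex, which combines a chromatin remodeller with histone deacetylases, and they can also activate genes. Ikaros is needed for lymphoid development, Aiolos is best known from B cells and activated lymphocytes, Helios and Eos from regulatory T cells, and Pegasus is the most divergent member and is expressed in many tissues.

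The coding bases of the second zinc finger, counted from the amino terminus, allow a comparison within the DNA-binding part. The stretches below hold 69 bases each, from the first cysteine codon of the finger, on the coding strand of the GENCODE transcript with the longest coding sequence. Capitals mark bases that differ from Ikzf1.
Ikzf1: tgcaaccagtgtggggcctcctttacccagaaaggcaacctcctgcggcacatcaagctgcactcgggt
Ikzf2: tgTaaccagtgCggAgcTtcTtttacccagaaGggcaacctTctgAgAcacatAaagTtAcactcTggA
Ikzf3: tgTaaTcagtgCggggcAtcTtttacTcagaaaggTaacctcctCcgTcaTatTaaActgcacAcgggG
Ikzf4: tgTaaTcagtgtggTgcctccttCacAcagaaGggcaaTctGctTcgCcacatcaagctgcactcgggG
Ikzf5: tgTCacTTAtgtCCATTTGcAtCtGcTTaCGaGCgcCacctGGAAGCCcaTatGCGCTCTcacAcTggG
Ikzf2 and Ikzf3 each differed from Ikzf1 at 14 bases (79.7% identity) and Ikzf4 at 11 (84.1%), whereas Ikzf5 differed at 40 (42.0%). Fingers were matched by their order only, and 6 stretches fitted the zinc finger pattern in Ikzf1, Ikzf2 and Ikzf3 but 5 in Ikzf4 and in Ikzf5. Whether the second finger of Ikzf5 corresponds to that of Ikzf1 was not tested, so the 42.0% is no measure of their divergence. The stretches start at coding base 499 of Ikzf1, 442 of Ikzf2, 439 of Ikzf3, 565 of Ikzf4 and 334 of Ikzf5. Over the whole transcripts, no run of 50 bases from any member occurred in a transcript of another member. For Ikzf1 and Ikzf3 no such run occurred in any other gene, and for Ikzf2 and Ikzf4 the share was 0.819% and 1.01%. Ikzf5 was the exception, with 93.6% of its runs also present in other annotated genes, mainly Pstk, a kinase gene of selenocysteine synthesis that overlaps it on the opposite strand. Runs were compared on both strands.

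On GRCm38, the assembly of mm10, GENCODE places Ikzf1 on the plus strand of chromosome 11 (11685003 to 11772926) and Ikzf3 on the minus strand of the same chromosome (98464902 to 98546031). Ikzf2 lies on chromosome 1 (69531214 to 69687245), Ikzf4 on chromosome 10 (128630843 to 128645991) and Ikzf5 on chromosome 7 (131388652 to 131410521), all on the minus strand. The deposited tables give 1 value per gene, so the splice forms of Ikaros factors, some of which lack DNA-binding fingers, are not told apart.

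Depth differed little, with between about 19000000 and 20900000 fragments per library, an estimate from the step that 1 fragment makes in low values. The values were taken as FPKM, fragments scaled by transcript length and library depth, and summed to between 574195 and 606724 per library. All 15 ILC2 markers examined were expressed at levels that could be tested, among them Gata3, Il1rl1 and Il13. Of 52 markers of 7 other cell types, 5 passed that filter, in order of mean level Pecam1, Cd3g, Cd79b, Cd68 and Epcam. The B cell gene Cd79b ranged from 2.93 FPKM in DTA-1 replicate 3 to 7.10 FPKM in isotype replicate 1. The 7 other B cell markers were under 1 FPKM in all libraries, and Ms4a1 and Pax5 were at 0 in at least 5 libraries each. Isotype replicate 1 had the highest level of mitosis genes, at 1.16 in log2(FPKM + 1) after centring each gene on its 6 libraries, against 0.204 and 0.035 in the other isotype libraries and -0.257, -0.620 and -0.517 in DTA-1 replicates 1, 2 and 3. Tnfrsf18, the gene of GITR, was present in both groups, at 170.5 ± 27.8 FPKM (SD, n = 3) with the isotype and 203 ± 46.8 FPKM with DTA-1.

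Ikzf3 was the member with the largest difference between the groups. Its level was 53.97, 89.3 and 80.5 FPKM in isotype replicates 1, 2 and 3 and 12.03, 31.5 and 35.2 FPKM in DTA-1 replicates 1, 2 and 3. Every DTA-1 library lay below every isotype library. The group means were 74.6 ± 18.4 and 26.3 ± 12.45 FPKM, so that the isotype mean was 2.84 times the DTA-1 mean. The log2 fold change on the log2(FPKM + 1) scale was -1.57 ± 0.37 (SE, 95% interval -2.43 to -0.72).

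Among the 10501 genes tested, which reached 1 FPKM in 3 or more libraries, 5 had a log2 fold change as low as or lower than that of Ikzf3, itself included (0.0476%). That rank takes no account of the spread between libraries. By unadjusted limma p, which was 0.00279, Ikzf3 ranked 210 from the smallest. The adjusted p over all tested genes was 0.140 (limma, Benjamini-Hochberg), above the threshold of 0.05. The exact 2-sided permutation test gave p = 0.1, the smallest value that 3 libraries against 3 allow. With library quality weights the limma call passed (log2 fold change -1.29, adjusted p = 0.0370). In that setting 475 of the 10501 tested genes passed, against 4 in the fit as reported. The limma adjusted p of Ikzf3 over all 14 alternatives ranged from 0.0187 to 0.269. The lowest came with replicate number as a block, where 185 genes passed.

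DTA-1 replicate 1 held the lowest Ikzf3 level and isotype replicate 1 the lowest of its group. Without DTA-1 replicate 1 the log2 fold change was -1.11, and without isotype replicate 1 it was -1.79. With both left out together it was -1.32 ± 0.14 (SE, limma adjusted p = 0.114). Between the groups, mitosis genes were lower with DTA-1, as Ikzf3 was, at a median log2 fold change of -0.97 over 30 genes, and 23 of the 30 lay lower in every DTA-1 library, against 10.5% of all tested genes. Within each group, replicate 1 had the highest mitosis level and the lowest Ikzf3 level, while replicates 2 and 3 stood in the same order for both measures. Summed T cell markers ranged from 11.3 to 12.25 FPKM with the isotype and from 8.85 to 10.5 FPKM with DTA-1, without overlap, of which Cd3g made up most, and 7 of the 8 were under 1 FPKM in all libraries. Pecam1 led the epithelial, endothelial and stromal markers, whose sums overlapped, ranging from 36.25 to 47.7 FPKM with the isotype and from 21.8 to 40.3 FPKM with DTA-1. Of the 9 genes in that list, 6 were under 1 FPKM in all libraries. Epcam, an epithelial adhesion gene of the same list, measured 2.84, 4.34 and 4.24 FPKM in the isotype libraries and 1.09, 1.85 and 1.61 FPKM in the DTA-1 libraries, without overlap (log2 fold change -0.93, limma adjusted p = 0.101). Summed B cell markers ranged from 3.63 to 7.83 FPKM with the isotype and from 3.41 to 6.77 FPKM with DTA-1, most of it Cd79b. The part of the cell cycle and of these markers in the Ikzf3 difference was not tested. In bulk RNA, fewer cells that express a gene and less of its RNA per cell cannot be told apart.

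**Figure D1:**
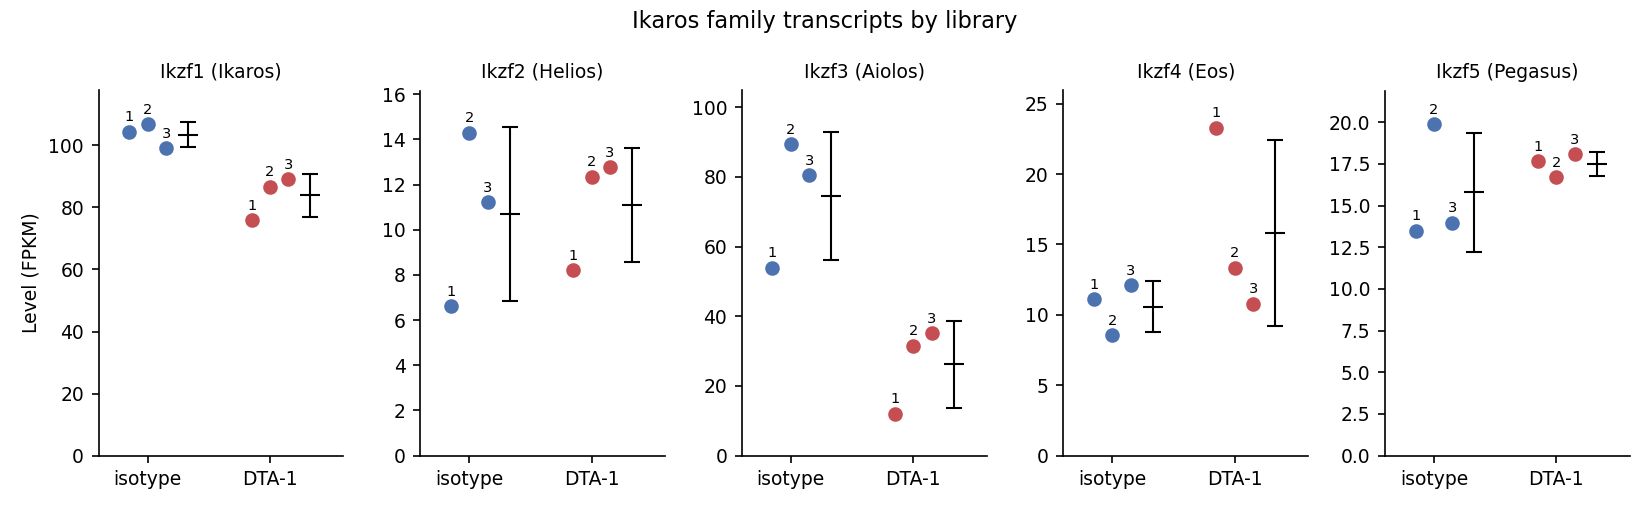
Level of each Ikaros family transcript in FPKM (vertical axes, each from 0) in the 3 isotype and 3 DTA-1 libraries; points are libraries numbered by replicate, and bars are the mean ± SD. The groups do not overlap for Ikzf1 and Ikzf3, where all DTA-1 libraries are lower, and overlap for Ikzf2, Ikzf4 and Ikzf5.

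Ikzf1, which encodes the founding member, was the most abundant of the family in every library. It measured 104, 107 and 99.0 FPKM in isotype replicates 1, 2 and 3 and 75.9, 86.6 and 89.1 FPKM in DTA-1 replicates 1, 2 and 3. The groups did not overlap, yet the gap between the lowest isotype library and the highest DTA-1 library was small. The means were 103 ± 3.98 and 83.85 ± 7.04 FPKM, a log2 fold change of -0.30 ± 0.11 (SE, 95% interval -0.56 to -0.05). The unadjusted p was 0.0261 and the limma adjusted p 0.278, so Ikzf1 did not pass. Leaving out each library in turn gave log2 fold changes between -0.35 and -0.23.

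Over all tested genes, 4 passed the limma threshold (0.0381%), of which 3 were higher with DTA-1 (0.0286%) and 1 lower (0.00952%), and 0 of 5 Ikaros family members were among them. At an unadjusted p under 0.05, Ikzf1 and Ikzf3 were lower with DTA-1, 2 of 5 members, where 7.73% of all tested genes were, and 0 of 5 were higher, where 6.22% were. With 1 library left out in turn, the unadjusted limma p of Ikzf1 ranged from 0.0319 to 0.103, so its place in this count depends on the libraries used. Ikzf1 and Ikzf3 were also the members whose groups did not overlap, both lower with DTA-1. The groups did not overlap for 21.6% of all tested genes, lower for 10.5% and higher for 11.2%. All 5 members passed the filter on low values, so none is missing from these counts.

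Ikzf2, which encodes Helios, varied more between libraries of a group than between the groups. Isotype replicates 1, 2 and 3 measured 6.61, 14.3 and 11.2 FPKM, and DTA-1 replicates 1, 2 and 3 measured 8.20, 12.3 and 12.8 FPKM. Replicate 1 was the lowest library of both groups. The log2 fold change was 0.08 ± 0.27 (SE, 95% interval -0.53 to 0.69, limma adjusted p = 0.924), an interval that takes in changes of either direction. Its sign was negative, at -0.20, without isotype replicate 1 and, at -0.02, without DTA-1 replicate 3.

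Ikzf4, which encodes Eos, a partner of the regulatory T cell factor Foxp3, had 1 library far above the others. It measured 11.1, 8.55 and 12.1 FPKM in isotype replicates 1, 2 and 3 and 23.3, 13.3 and 10.8 FPKM in DTA-1 replicates 1, 2 and 3. DTA-1 replicate 1, the library lowest in Ikzf3 and Ikzf1, was thus highest in Ikzf4, and DTA-1 replicate 3 lay within the isotype range. The log2 fold change was 0.48 ± 0.26 (SE, 95% interval -0.12 to 1.07, limma adjusted p = 0.468). Leaving out DTA-1 replicate 1 gave 0.18, and leaving out replicate 3 of that group gave 0.70. Foxp3 itself was below 0.3 FPKM in every library.

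Ikzf5, which encodes Pegasus, reached 13.5, 19.9 and 14.0 FPKM with the isotype (replicates 1, 2 and 3) and 17.7, 16.7 and 18.1 FPKM with DTA-1 (replicates 1, 2 and 3). All DTA-1 values lay within the isotype range. The log2 fold change was 0.16 ± 0.16 (SE, 95% interval -0.20 to 0.52, limma adjusted p = 0.728). It was 0.33 without isotype replicate 2, the highest library, 0.063 without isotype replicate 1 and 0.086 without isotype replicate 3. Pstk, which overlaps Ikzf5 on the other strand, was listed at 7.84 ± 1.04 and 8.68 ± 1.58 FPKM (SD, n = 3). The library kit keeps strand, but whether the counting used it is not stated in these sources, so reads of Ikzf5 and Pstk may not have been told apart.

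**Figure D2:**
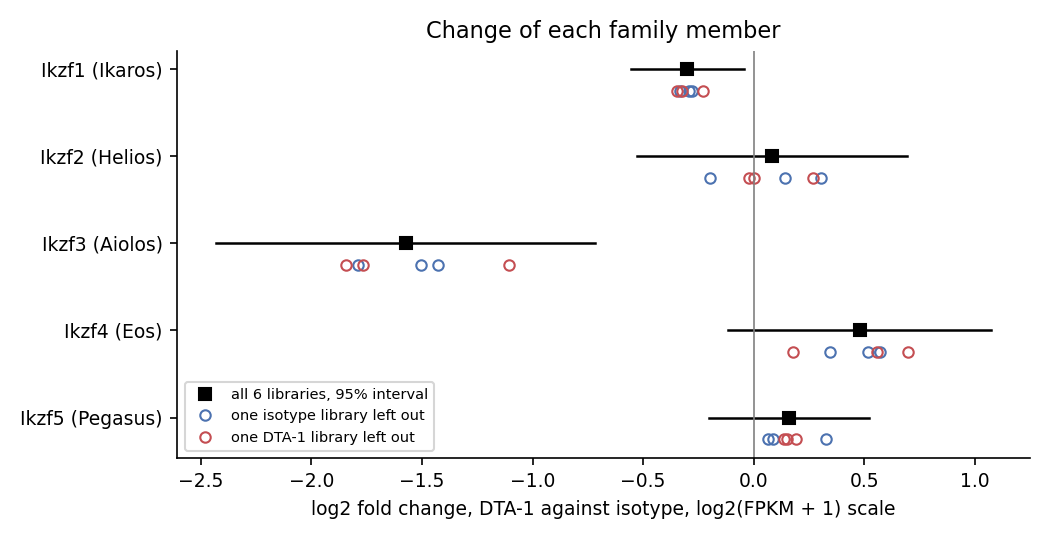
Log2 fold change of each member, DTA-1 against isotype, on the log2(FPKM + 1) scale; squares with lines are the limma fit over all 6 libraries with its 95% interval, and open circles are fits with 1 library left out. The circles of Ikzf3 lie between -1.84 and -1.11 and those of Ikzf1 between -0.35 and -0.23, while those of Ikzf2 fall on both sides of 0.

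Counting noise was small beside these spreads. The lowest value of Ikzf3, in DTA-1 replicate 1, corresponded to about 867 fragments and a counting error of 3.396%, and the lowest value of Ikzf4 to about 835 fragments and 3.46%. These estimates use the longest coding transcript of each gene and cover counting error only.

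By mean level, Ikzf1, Ikzf3 and Ikzf5 stood in this order in both groups. With the isotype, Ikzf1 lay above Ikzf3 in each library, and Ikzf3 lay above the 3 remaining members without overlap. Ikzf5, Ikzf2 and Ikzf4 followed at means of 15.8, 10.7 and 10.6 FPKM, where the ranges of Ikzf2 overlapped those of both Ikzf5 and Ikzf4. With DTA-1, the range of Ikzf3, 12.03 to 35.2 FPKM, overlapped those of Ikzf2, Ikzf4 and Ikzf5. In DTA-1 replicate 1, Ikzf3 stood below both Ikzf4 and Ikzf5.

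The summed FPKM of the 5 members was 190, 239 and 217 with the isotype (replicates 1, 2 and 3) and 137, 161 and 166 with DTA-1 (the same order of replicates). These totals did not overlap between the groups (exact 2-sided permutation p = 0.1). Ikzf3 made up 28.5%, 37.4% and 37.1% of the sum in the isotype libraries and 8.78%, 19.6% and 21.2% in the DTA-1 libraries. Ikzf1 made up 48.5 ± 5.71% and 54.3 ± 0.891% (SD, n = 3), with 55.03% in isotype replicate 1 inside the DTA-1 range. The share of Ikzf5 was 7.30 ± 0.954% with the isotype and 11.4 ± 1.32% with DTA-1, although its level differed by less than the spread between libraries.

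Set against Ikzf1 in the same library, Ikzf3 stood at 0.518, 0.837 and 0.813 times the Ikzf1 level with the isotype (replicates 1, 2 and 3). With DTA-1 the ratios were 0.159, 0.364 and 0.395 in the same order. The ratio was lower in each DTA-1 library than in any isotype library (exact 2-sided permutation p = 0.1 on the log2 ratio, the smallest possible). Of the 10 ratios between pairs of members, the 4 that include Ikzf3 and the ratio of Ikzf5 to Ikzf1 reached this smallest p, and the other 5 did not. Adjusted over the 10 ratios (Benjamini-Hochberg), the exact permutation p of these 5 was 0.2.

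**Figure D3:**
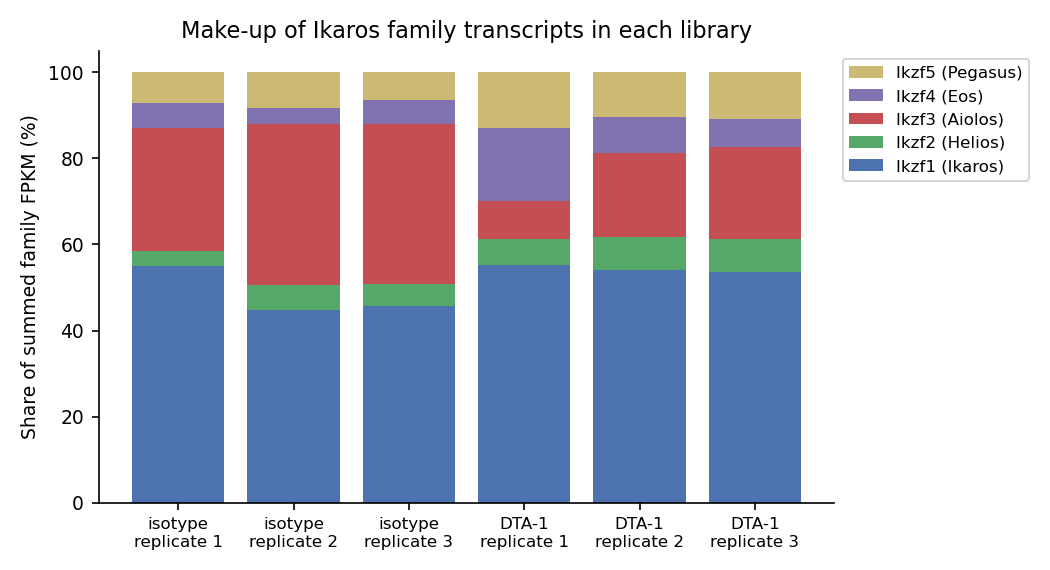
Share of each member in the summed FPKM of the Ikaros family (vertical axis, percent), 1 stacked bar per library. The Ikzf3 segment spans 28.5% to 37.4% in the isotype libraries and 8.78% to 21.2% in the DTA-1 libraries.

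The genes with the profile most like that of Ikzf3 over the 6 libraries were St3gal6, Ctla4 and Lrmp. Likeness was the root mean square difference of log2(FPKM + 1) values centred on each gene's mean, over 8136 other genes with a mean of at least 5 FPKM. It was 0.13 for St3gal6, 0.25 for Ctla4 and 0.26 for Lrmp, against a range of 2.79 for Ikzf3 itself, and the libraries share the group difference, so likeness includes it. St3gal6, which encodes a sialyltransferase, measured 8.26, 15.6 and 14.2 FPKM in isotype replicates 1, 2 and 3 and 1.89, 5.20 and 6.62 FPKM in DTA-1 replicates 1, 2 and 3. Ctla4, the gene of an inhibitory receptor that competes with CD28, measured 25.6, 34.0 and 28.1 FPKM and then 2.46, 11.2 and 12.7 FPKM in the same order. Both had their lowest value in DTA-1 replicate 1, as Ikzf3 did, which reflects their choice for likeness over these libraries. Their limma adjusted p values were 0.161 and 0.148.

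**Figure D4:**
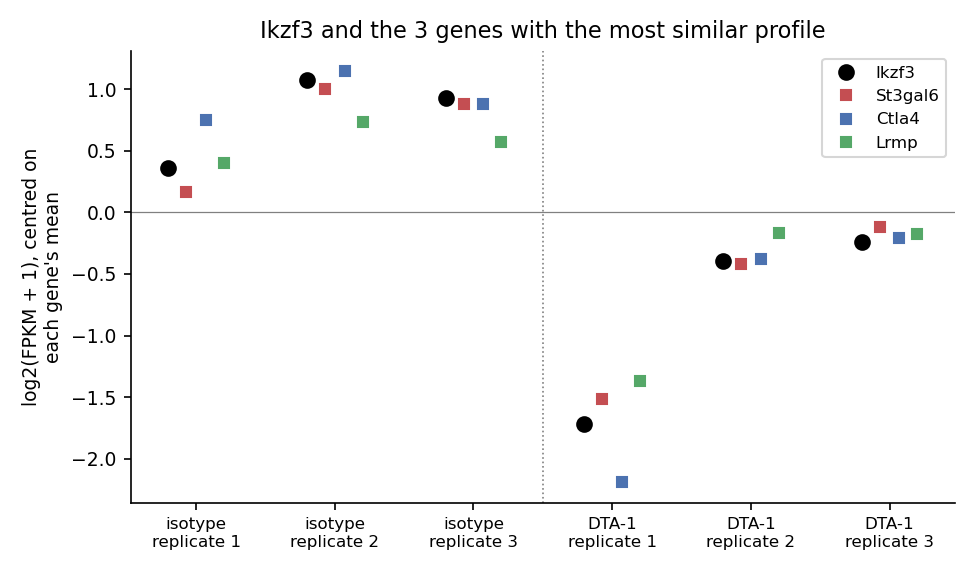
Centred log2(FPKM + 1) values (vertical axis) of Ikzf3, St3gal6, Ctla4 and Lrmp in each library; points of 1 library are set side by side. All 4 genes are above their means in each isotype library and below them in each DTA-1 library, with the lowest point of each gene in DTA-1 replicate 1. St3gal6, Ctla4 and Lrmp were chosen for this likeness.

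The genes most like the other members were found by the same measure. They were chosen for likeness over these same 6 libraries, so the features they share with a member reflect that choice. Nupr1, a stress-induced chromatin protein gene, was the gene most like Ikzf1 (difference 0.019), followed by Runx2, a Runt family transcription factor gene, and the adaptor gene Nck2 (0.037 each), and all 3 were lower in every DTA-1 library than in any isotype library, as Ikzf1 was. Aim1, Impact and Sumf1 were most like Ikzf2 (0.056, 0.062 and 0.066), and all 3 were lowest in isotype replicate 1, as Ikzf2 was. The transporter genes Slc6a9 and Slc39a4 and the kinase gene Tesk1 were most like Ikzf4 (0.082, 0.087 and 0.092), each highest in DTA-1 replicate 1. Tmem68, Phip and Stam2 were most like Ikzf5 (0.033, 0.034 and 0.037), each highest in isotype replicate 2.

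Genes of the corepressors with which Ikaros factors work were examined next. Of 14 tested subunit genes of the NuRD complex, none passed over all genes. At an unadjusted limma p under 0.05 there was 1 of the 14, against 14.0% of all tested genes. In every DTA-1 library 2 lay lower and 0 higher, against 10.5% and 11.2% of all tested genes. The median log2 fold change was -0.02, against 0.01 over all tested genes. Chd4, the remodelling ATPase that binds Ikaros, measured 101 ± 14.35 and 107 ± 17.4 FPKM, and the deacetylase gene Hdac1 120.0 ± 6.32 and 122 ± 5.77 FPKM (SD, n = 3). The histone-binding subunit gene Rbbp7 measured 214 ± 31.4 and 154 ± 6.45 FPKM, and no DTA-1 library reached the isotype range (log2 fold change -0.46 ± 0.13, SE, limma adjusted p = 0.179). Its relative Rbbp4 measured 86.3 ± 3.41 and 75.3 ± 0.368 FPKM, also without overlap, and Mbd2, a reader of methylated DNA, 108 ± 11.2 and 91.6 ± 10.9 FPKM.

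Among 8 tested genes of other corepressors and remodellers the median log2 fold change was -0.11. The lowest was Ezh2, the methyltransferase of the Polycomb repressive complex, at 93.0 ± 24.5 and 57.6 ± 7.36 FPKM (SD, n = 3), without overlap (log2 fold change -0.66 ± 0.19, SE, limma adjusted p = 0.179). Its partners Suz12 and Eed measured 50.2 ± 10.6 and 38.1 ± 3.35 FPKM, and 70.9 ± 15.6 and 59.5 ± 6.77 FPKM, with overlap. Of the S phase genes, 33 of 35 lay lower in every DTA-1 library than in any isotype library, against 10.5% of all tested genes. The part of the cell cycle in the values of Ezh2 and Rbbp7, which are both known to be expressed more in dividing cells, was not tested.

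Enzymes that modify Ikaros proteins or govern their turnover gave a median log2 fold change of 0.03 over 15 tested genes. None had an unadjusted limma p under 0.05, against 14.0% of all tested genes. These enzymes were the subunits of casein kinase 2, the catalytic subunits of protein phosphatase 1, the cereblon ubiquitin ligase and the SUMO enzymes. Crbn, which encodes cereblon, the substrate receptor through which thalidomide-like drugs degrade Ikaros and Aiolos in human cells, measured 16.3 ± 1.59 and 18.2 ± 1.31 FPKM (SD, n = 3). The members with the smallest p were the phosphatase gene Ppp1cc (211 ± 17.7 and 180.9 ± 13.0 FPKM), the SUMO ligase gene Pias3 (5.14 ± 0.757 and 6.12 ± 0.254 FPKM) and the kinase gene Csnk2a2 (14.97 ± 0.411 and 16.9 ± 0.532 FPKM). Pias3 and Csnk2a2 lay higher in every DTA-1 library, by 0.22 and 0.17 on the log2 scale, and Pias1, another SUMO ligase gene, lay lower in every one. These are 2 and 1 of 15 genes, against 11.2% and 10.5% of all tested genes.

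Genes reported to be bound or regulated by Ikaros factors in lymphocytes were set beside the family. The list held 39 genes compiled from general knowledge, of which 23 could be tested. None passed over all genes, and the median log2 fold change was -0.09. At an unadjusted p under 0.05, 4 of the 23 were higher and 3 lower, against 6.22% and 7.73% of all tested genes. For 4 genes every DTA-1 library lay higher and for 4 every one lay lower, against 11.2% and 10.5% of all tested genes. Ctla4, described above, is also in this list, at a log2 fold change of -1.85. Il10, a cytokine gene, was at -1.95, with overlap between the groups (limma adjusted p = 0.589). Both lay below Ikzf3 at -1.57. Hes1, a Notch target gene, measured 6.62, 9.41 and 9.30 FPKM in isotype replicates 1, 2 and 3 and 17.4, 15.6 and 15.6 FPKM in DTA-1 replicates 1, 2 and 3 (log2 fold change 0.88 ± 0.15, SE, limma adjusted p = 0.0817). Myc, a driver of growth, measured 120 ± 13.5 and 170 ± 7.46 FPKM (SD, n = 3), higher in each DTA-1 library (limma adjusted p = 0.140). Ets1, a lymphoid transcription factor gene, measured 87.5 ± 14.2 and 49.7 ± 4.93 FPKM, lower in each DTA-1 library (limma adjusted p = 0.0923).

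Of 21 tested transcription factor genes of lymphoid lineages, none passed over all genes. In every DTA-1 library 3 lay higher and 6 lower, against 11.2% and 10.5% of all tested genes, and the median log2 fold change was 0.055. Ets1 stands in this list too. Nfil3, which is needed for early innate lymphoid progenitors, measured 58.8 ± 6.29 and 33.5 ± 4.58 FPKM (SD, n = 3), without overlap (limma adjusted p = 0.0856). Trps1, whose protein carries zinc fingers of the Ikaros type, measured 6.57 ± 1.31 and 10.85 ± 1.40 FPKM, higher in each DTA-1 library (limma adjusted p = 0.148). The log2 fold change of Ikzf3, at -1.57, lay below that of every tested gene in this list, where the lowest was Satb1, a chromatin organiser gene, at -1.10; Satb1 was chosen after its values were seen, and the difference between the genes was not tested. The 15 ILC2 markers had a median log2 fold change of -0.24, with 1 higher and 3 lower in every DTA-1 library, against 11.2% and 10.5% of all tested genes. Il13, the gene of a type 2 cytokine, measured 2326 ± 453 and 5422 ± 720.0 FPKM (SD, n = 3, limma adjusted p = 0.0663). Klrg1, an inhibitory receptor gene of mature ILC2, was at -1.73 on the log2 scale (limma adjusted p = 0.178).

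**Figure D5:**
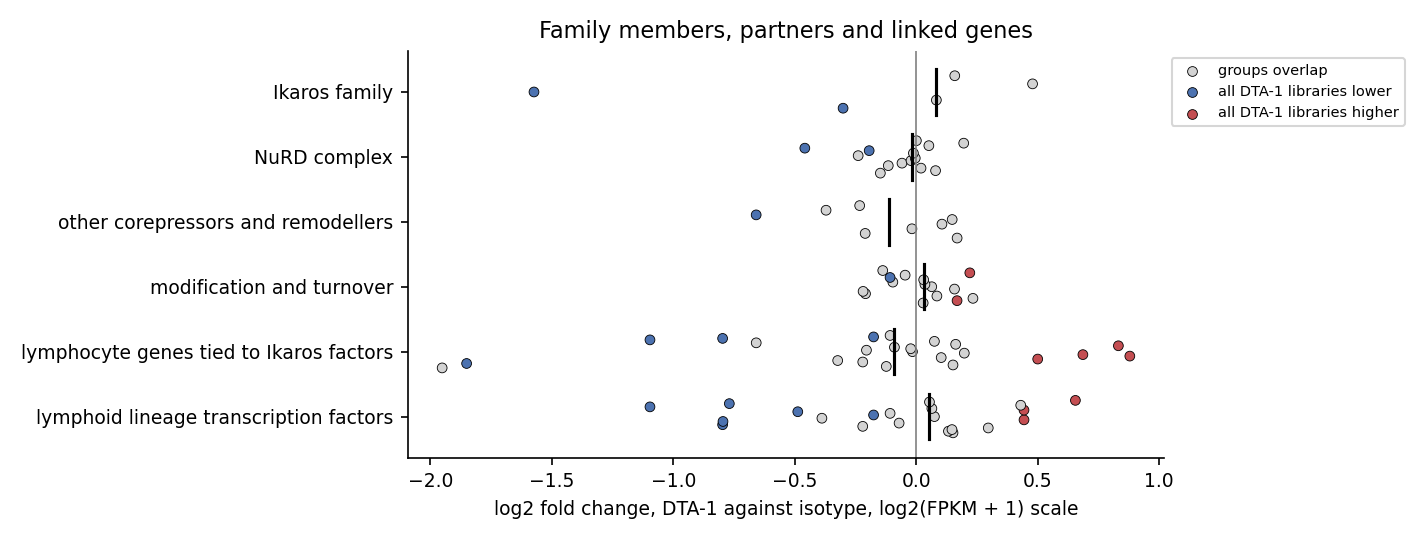
Log2 fold changes (horizontal axis, DTA-1 against isotype, log2(FPKM + 1) scale) of the Ikaros family and of 5 gene lists; each point is a tested gene, coloured by whether the groups overlap, and the vertical bar is the median of the list. The medians of the 5 lists lie between -0.11 and 0.055, and Ikzf3 stands at -1.57. Il10 (-1.95) and Ctla4 (-1.85), single genes of the lymphocyte list, lie lower than Ikzf3.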

How the data were processed

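The authors deposited 1 table per library that lists each gene's symbol and its value, taken as FPKM because the values are not whole and, times transcript length, cluster at whole fragments. Per the submitters' processing notes, TopHat was the aligner and mm10 the build. The sources used here give no version, quantification program, annotation or strand setting. Groups and replicate numbers came from the sample titles; the treatment tags number the antibodies differently and were not used.

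A gene was tested where 3 or more libraries reached 1 FPKM (10501 genes). The test was limma 3.58.1 (R 4.3.3) on log2(FPKM + 1), with group as its only covariate, robust empirical Bayes with a trend, 2-sided p-values, Benjamini-Hochberg adjustment over all tested genes and a threshold of 0.05. Low genes change by less on this scale than in FPKM. The procedure was tested on simulated data. The squared difference between libraries of a group was, at the median gene, 5.35 to 41.9 times that of counting noise, so none was treated as a copy. Lengths, coordinates and coding sequences came from GENCODE M21.

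The members and the 15 gene lists (233 entries, all in the files) were chosen with earlier results of these data known. Named genes were the members, Tnfrsf18, in each list the genes that passed or, with none, the 3 of smallest p with a mean of 5 FPKM or more, the most abundant marker of each other cell type, and the 3 genes most like each member. Chd4, Hdac1, Crbn, Foxp3, Pstk, Satb1, Il10, Epcam, Pias1 and the named B cell and ILC2 markers were added for their role or after their values were seen. Summed markers of the remaining types were low: NK cell and ILC1 at most 1.855 FPKM in any library, ILC3 3.30, myeloid 4.39, and mast cell and basophil 0.484. By mean over all libraries the most abundant markers of these types were, in the same order, Ifng, Il22, Cd68 and Cma1.

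Alternatives covered the pseudocount (0.1), the filter, scaling, a replicate block, library quality weights and leaving out libraries. Leaving out isotype replicate 1 and DTA-1 replicate 1 together was added after seeing the data. Figures were drawn with matplotlib 3.10.9.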

Additional observations from a re-analysis of the deposited data

How the results depend on the processing

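The direction of Ikzf1, Ikzf3, Ikzf4 and Ikzf5 was the same under all 14 alternatives, and Ikzf1, Ikzf2, Ikzf4 and Ikzf5 stayed short of the threshold in each. Ikzf3 passed in 2: with library quality weights (log2 fold change -1.29, limma adjusted p = 0.0370) and with a replicate block (-1.57, adjusted p = 0.0187). Whether same-numbered libraries were paired is not in the labels. The library names of the 2 groups carry the same number for replicates 2 and 3 but different numbers for replicate 1. Deviations of same-numbered libraries from their group means correlated at 0.393, -0.101 and -0.129 over genes. Isotype replicate 1 correlated best with DTA-1 replicate 1, and isotype replicates 2 and 3 with DTA-1 replicates 3 and 2 (0.485 and 0.385). Such deviations constrain one another within a group of 3, so these correlations cannot decide whether the libraries were paired. The block changed no other member's call. With each library left out in turn, the log2 fold change ranged from -0.35 to -0.23 for Ikzf1, -0.20 to 0.305 for Ikzf2, -1.84 to -1.11 for Ikzf3, 0.18 to 0.70 for Ikzf4 and 0.063 to 0.33 for Ikzf5. Without the first replicate of both groups, Ikzf2 was at -0.0123. Over all genes, 4 passed the threshold in the fit as reported, 2 to 4 with each library left out, 2 without the filter on low values, 7 without both of these libraries (6 higher and 1 lower), 185 with the block (59 higher and 126 lower) and 475 with quality weights (161 higher and 314 lower). The cause of these shifts was not tested. With 3 libraries a group, the exact test cannot fall below 0.1. The estimated counting error at the lowest library was at most 3.46% for any member. That estimate does not cover reads that Ikzf5 may share with Pstk.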
